A study of Danio rerio with 6 samples.

Results

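A set of 9 genes that light is known to switch on in zebrafish, or that act in the same DNA repair, was followed across the pineal gland, the eye and a mixture of other organs at mid-night and mid-day. They were cry5, xpc, ddb2, neil1, lonrf1, uvssa, ercc1, ercc5 and polk. The table of the study lists 32105 Ensembl gene IDs, and each of the 9 symbols matched exactly 1 of them (case ignored). The genes were chosen for what is known of them and not for their values in the table, though with earlier results of these data in view. All 9 passed the filter on low values described below.

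All libraries came from adults, 0.5 to 1.5 years of age, that carried the transgene Tg(aanat2:EGFP) and lived under light for 12 h and darkness for 12 h a day. The transgene puts EGFP, a green fluorescent protein used to find the gland, under regulatory sequence of aanat2, whose enzyme makes a precursor of melatonin. Every group carried it. Pineal night (ZT18, counted in hours from lights on) and pineal day (ZT6) were each a pool of 18 glands, and eye night and eye day were each a pool of 6 whole eyes. Mixed night and mixed day held equal amounts of RNA from 8 organs (brain, heart, liver, kidney, gill, ovary, muscle and intestines), with 4 to 8 of each organ collected at a time point. There was thus 1 poly-A RNA library for each tissue and time point, and 6 in all. No library was repeated, so a difference between night and day within a tissue has no replicate check.

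The values are FPKM, counts scaled by gene length and library size, so levels can be set side by side between genes. From 7949224 (pineal night) to 15950819 (mixed night) counted units, called reads here although they may be fragments, lay behind the libraries. The tissue labels were checked against markers. The summed level of 9 matched pineal markers was 6989 and 5732 FPKM in the pineal night and day libraries, 581 and 444 FPKM in the eye, and 5.0 and 5.91 FPKM in mixed tissue. Ovary markers summed to 9.05 FPKM or less in each pineal and eye library and to 3997 and 3729 FPKM in mixed night and mixed day. Of 16 ovary markers matched, 5 were at 0 in each pineal library, 3 in eye night and 5 in eye day.

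Ultraviolet light joins neighbouring bases of DNA, and several kinds of repair remove such damage. Photolyases bind the lesion and reverse it with the energy of visible light. In nucleotide excision repair, damage is recognised either anywhere in the genome or where RNA polymerase has stalled, and the strand is cut on both sides of it. Base excision repair removes single damaged bases, and translesion polymerases copy past damage that is still in place. In zebrafish, many tissues and cultured cells sense light directly, and light raises the transcripts of clock genes and of repair genes together.

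By the counting intervals below, the day library held more cry5, lonrf1, neil1, ddb2, xpc and ercc5 than the night library in the pineal gland. In the eye this was so for lonrf1, neil1 and cry5, and in mixed tissue for lonrf1, cry5 and ercc5. The counting interval of the ratio of night to day, a 95% exact (Clopper-Pearson) interval from the reads behind the values, lay wholly below 1 for 6 of the 9 genes in the pineal gland, 3 in the eye and 3 in mixed tissue. Of all genes tested in the model below and with a read in the tissue, 21.7% had an interval below 1 in the pineal gland, 21.4% in the eye and 21.3% in mixed tissue. The interval lay wholly above 1 for 1 of the 9 genes in the pineal gland, 1 in the eye and 2 in mixed tissue, and for 19% of all genes in the pineal gland, 32.3% in the eye and 22.6% in mixed tissue. Beside these shares the counts, each of 1 pool against 1, are a description only in the pineal gland, the eye and mixed tissue. Genes with more reads have narrower intervals. These intervals cover counting error only. They do not cover the spread between pools of fish. How many of all genes have intervals that do not overlap between tissues was not counted. Statements on overlap below are therefore a description.

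The gene cry5 (ENSDARG00000019498) encodes the (6-4) photolyase of zebrafish, which reverses one class of ultraviolet lesion in light. It was at 0.266 FPKM in pineal night against 3.64 FPKM in pineal day, from 5 and 95 reads. The ratio of night to day was 0.0731 (interval 0.0232 to 0.177), a level 13.7 times higher by day. In the eye, cry5 was at 0.378 FPKM at night against 0.789 FPKM by day (ratio 0.480, interval 0.222 to 0.974), from 12 and 28 reads. In mixed tissue it was at 3.10 FPKM at night against 5.04 FPKM by day (ratio 0.616, interval 0.485 to 0.780). The day library was the higher in all 3 tissues. The pineal interval did not overlap those of the eye and mixed tissue, which overlapped each other. The 2 eye libraries were low at both times, and pineal night was the lowest of the 6 libraries.

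The gene lonrf1 (ENSDARG00000078567) encodes a protein with a LON domain and RING fingers and is known as a light-induced gene of zebrafish. It was at 2.99 FPKM in pineal night against 26.4 FPKM in pineal day, and at 1.29 FPKM in eye night against 25.2 FPKM in eye day. The mixed libraries held 8.93 FPKM at night against 12.9 FPKM by day. The pineal and eye day libraries stood above both mixed libraries, and the pineal and eye night libraries stood below them. The ratio of night to day was 0.113 (interval 0.0922 to 0.138) in the pineal gland, 0.0513 (0.0404 to 0.0644) in the eye and 0.694 (0.627 to 0.769) in mixed tissue. No pair of these intervals overlapped. Counted from the lowest ratio, lonrf1 was gene 21 of 11753 in the pineal gland and gene 17 of 12735 in the eye, among genes whose higher library reached 5 FPKM. In mixed tissue the rank was 1177 of 13055.

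**Figure D1:**
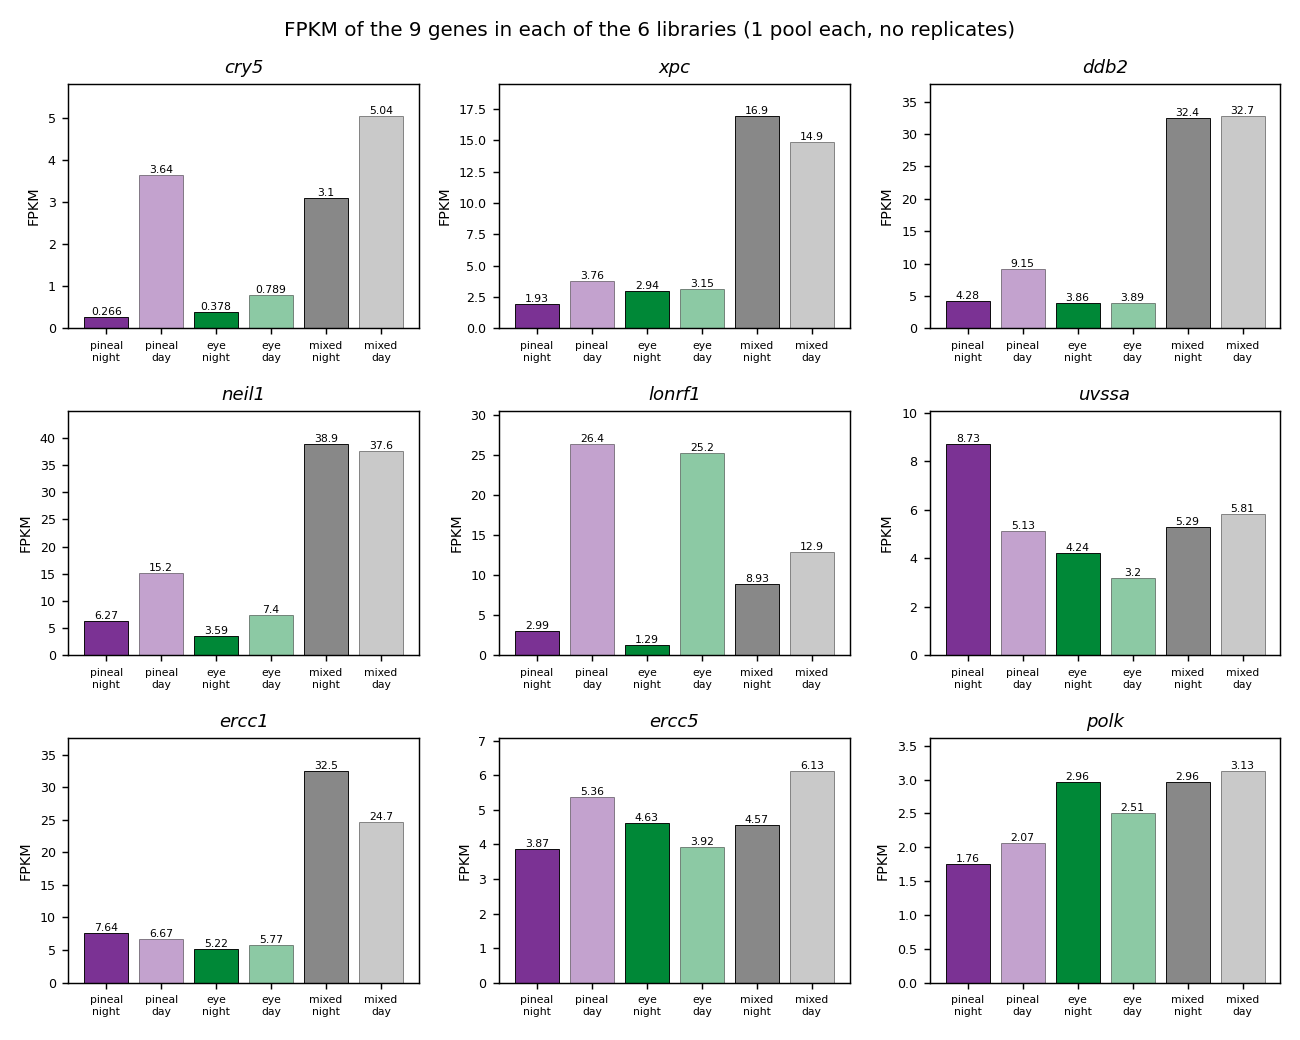
FPKM (vertical axis, linear, from 0) of the 9 genes in the 6 libraries, with tissues by colour and night bars darker than day bars; each bar is 1 pooled library, so there are no error bars. The night bar of lonrf1 is far below the day bar in the pineal gland (2.99 against 26.4 FPKM) and the eye (1.29 against 25.2 FPKM), while xpc, ddb2, neil1 and ercc1 are highest in both mixed libraries.

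The genes xpc and ddb2 encode the damage sensors of genome-wide nucleotide excision repair. The ddb2 protein binds ultraviolet lesions in chromatin and xpc recognises the distorted helix. xpc (ENSDARG00000039754) was at 1.93 FPKM in pineal night against 3.76 FPKM in pineal day (ratio 0.514, interval 0.360 to 0.724). Its values were 2.94 FPKM in eye night against 3.15 FPKM in eye day (ratio 0.934, interval 0.727 to 1.2), and 16.9 FPKM in mixed night against 14.9 FPKM in mixed day (ratio 1.14, interval 1.03 to 1.26). The pineal interval was below 1, the mixed interval above 1, and the eye interval included 1. ddb2 (ENSDARG00000041140) was at 4.28 FPKM in pineal night against 9.15 FPKM in pineal day (ratio 0.468, interval 0.349 to 0.620). Its eye values were 3.86 FPKM at night against 3.89 FPKM by day (ratio 0.993, interval 0.753 to 1.31). Its mixed values were 32.4 FPKM at night against 32.7 FPKM by day (ratio 0.991, interval 0.907 to 1.08). For both sensors the pineal interval overlapped neither the eye interval nor the mixed interval. For xpc the pineal and eye intervals all but met, at 0.724 and 0.727.

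The gene neil1 (ENSDARG00000018061) encodes a glycosylase that starts base excision repair at oxidised bases. It was at 6.27 FPKM in pineal night against 15.2 FPKM in pineal day (ratio 0.413, interval 0.321 to 0.526), and at 3.59 FPKM in eye night against 7.40 FPKM in eye day (ratio 0.485, interval 0.371 to 0.629). In mixed tissue it was at 38.9 FPKM at night against 37.6 FPKM by day (ratio 1.03, interval 0.948 to 1.13). The pineal and eye intervals overlapped each other and were both below the mixed interval.

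uvssa (ENSDARG00000100916) encodes a protein that acts at stalled RNA polymerase in transcription-coupled repair. It was at 8.73 FPKM in pineal night against 5.13 FPKM in pineal day (ratio 1.70, interval 1.39 to 2.09), and at 4.24 FPKM in eye night against 3.20 FPKM in eye day (ratio 1.32, interval 1.06 to 1.66). In mixed tissue it was at 5.29 FPKM at night against 5.81 FPKM by day (ratio 0.911, interval 0.766 to 1.08). It had the highest ratio of the 9 genes in the pineal gland and in the eye. Its pineal interval lay above its mixed interval, and the eye interval overlapped both.

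The genes ercc1 and ercc5 encode proteins of the nucleases that cut the damaged strand on either side of the lesion. ercc1 (ENSDARG00000031680), which works with ercc4, was at 7.64 FPKM in pineal night against 6.67 FPKM in pineal day (ratio 1.14, interval 0.847 to 1.54). It was at 5.22 FPKM in eye night against 5.77 FPKM in eye day (ratio 0.905, interval 0.685 to 1.19). Its mixed values were 32.5 FPKM at night against 24.7 FPKM by day (ratio 1.32, interval 1.18 to 1.48). Only the mixed interval of ercc1 left out 1, and it was above it. ercc5 (ENSDARG00000023678) was at 3.87 FPKM in pineal night against 5.36 FPKM in pineal day (ratio 0.723, interval 0.565 to 0.920). It was at 4.63 FPKM in eye night against 3.92 FPKM in eye day (ratio 1.18, interval 0.968 to 1.44), and at 4.57 FPKM in mixed night against 6.13 FPKM in mixed day (ratio 0.745, interval 0.629 to 0.882). Its 6 FPKM values lay within a narrow range, and the FPKM ranges of the tissues overlapped. The eye interval of ercc5 overlapped neither the pineal interval nor the mixed interval.

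The translesion polymerase gene polk (ENSDARG00000059963) was at 1.76 FPKM in pineal night against 2.07 FPKM in pineal day, at 2.96 FPKM in eye night against 2.51 FPKM in eye day, and at 2.96 FPKM in mixed night against 3.13 FPKM in mixed day. The ratio of night to day was 0.847 (interval 0.584 to 1.22) in the pineal gland, 1.18 (0.923 to 1.50) in the eye and 0.946 (0.761 to 1.17) in mixed tissue. All 3 intervals included 1, so a difference was not detectable at this depth.

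**Figure D2:**
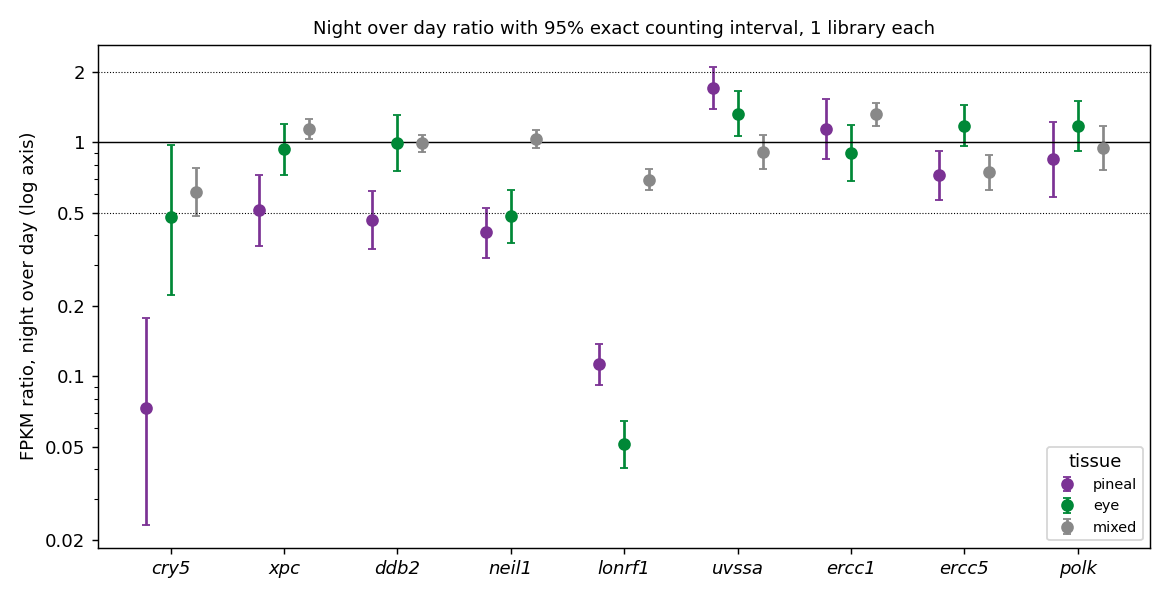
Ratio of night to day FPKM (log axis) for each gene, with points for pineal gland, eye and mixed tissue and bars for 95% exact counting intervals of 1 library against 1; dotted lines mark a 2-fold difference. The lowest ratios are those of lonrf1 in the eye (0.0513), cry5 in the pineal gland (0.0731) and lonrf1 in the pineal gland (0.113), and polk has intervals that include 1 in all 3 tissues.

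By size alone, 3 genes (ddb2, neil1 and lonrf1) reached 5 FPKM in one of the pineal libraries and were at least 2-fold lower at night. Of all 11753 genes at that level, 3.87% were at least 2-fold lower at night and 3.05% at least 2-fold higher. In the eye 2 of the 3 genes at that level, neil1 and lonrf1, were at least 2-fold lower at night, where 6.27% of 12735 genes were lower and 7.13% higher. In mixed tissue 0 of 8 were, where 3.34% of 13055 genes were lower and 1.15% higher. The gene cry5 did not reach 5 FPKM in any pineal or eye library, so these counts leave it out. The genes ddb2 in the pineal gland, neil1 in the eye and lonrf1 in both reached 5 FPKM through the day library only, and the counts are a description. Erythrocyte markers, 8 of 12 matched and none at 0, summed to 157 FPKM in pineal night against 272 FPKM in pineal day, and to 121 FPKM in eye night against 207 FPKM in eye day. In the eye, 10 matched lens markers summed to 3813 FPKM at night against 6793 FPKM by day. Of the brain neuron markers 4 of 15 matched, with a sum of 126 FPKM in eye night against 65.0 FPKM in eye day and gap43 at 0 in all libraries. The mixed pools differed too. Liver markers, 10 of 10 matched, summed to 3113 FPKM in mixed night against 3991 FPKM in mixed day. Muscle and heart markers, 5 of 10 matched, summed to 2279 FPKM at night against 2712 FPKM by day. Ovary markers went the other way, with 3997 FPKM at night against 3729 FPKM by day. The part of these differences between pools in the ratios of the repair genes was not tested. In pooled tissue, fewer cells of a type and less RNA per cell cannot be told apart.

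Night and day were also compared over the tissues, with each tissue supplying 1 night and 1 day library. Values were taken as log2(FPKM + 1), and limma fitted effects of tissue and of time to 21325 genes, those that reached 1 FPKM in 2 libraries. Log2 differences below are on that scale, on which changes of weakly expressed genes appear too small. Calls required a 2-fold change and an adjusted p (Benjamini-Hochberg, all genes) below 0.05. None of the 9 genes was called, and 0% of all genes were called (0 of 21325). At an unadjusted p under 0.05 there were 3 of the 9 genes and 1506 of all genes. These 3 were lonrf1 at -2.26 (SE 0.57, limma adjusted p 0.679), cry5 at -0.94 (SE 0.32) and neil1 at -0.66 (SE 0.26), each lower at night. The first 2 were lower at night in 3 of 3 tissues and neil1 in 2 of 3. Leaving out 1 library gave -1.22 to -0.47 for cry5 and -1.01 to -0.41 for neil1, and the values nearest 0 were those without either pineal library. With voom on the recovered reads, 11 genes were called and none of the 9. The other 6 genes ran from -0.32 (ddb2) to 0.29 (uvssa).

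Against mixed tissue, xpc, ddb2, neil1 and ercc1 were lower in the pineal gland and in the eye, and cry5 was lower in the eye. Thus 4 of 9 genes fell in the pineal gland, where 46.5% of all genes were called (30.1% lower and 16.4% higher), and 5 of 9 fell in the eye, where 49.2% were called (28.5% lower and 20.7% higher). None of the 9 was called higher. The median log2 difference of all genes was -0.28 in the pineal gland and -0.19 in the eye. Both comparisons use the same mixed libraries. Counts over 9 genes are coarse, and beside such a background they are a description.

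In the pineal gland the log2 difference from mixed tissue was -2.18 for xpc (SE 0.27, limma adjusted p 0.00137), -2.20 for ddb2 (SE 0.29, limma adjusted p 0.00164), -1.86 for neil1 (SE 0.31, limma adjusted p 0.00417) and -1.85 for ercc1 (SE 0.20, limma adjusted p 0.000855). In the eye it was -2.06 for xpc (SE 0.27), -2.78 for ddb2 (SE 0.29), -2.66 for neil1 (SE 0.31) and -2.18 for ercc1 (SE 0.20), with limma adjusted p from 0.000486 to 0.00157. For each of these 4 genes, every pineal and eye library was below both mixed libraries. The gap between pineal gland and mixed tissue was wider in the night pair of libraries for the first 3, a difference that was not tested. The pineal level of ddb2 was 0.132 times the mixed level at night and 0.280 times by day, and that of neil1 0.161 times at night and 0.404 times by day. For ercc1 the values were closer, 0.235 times at night and 0.270 times by day.

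The difference of cry5 from mixed tissue was -1.66 in the eye (SE 0.40, limma adjusted p 0.0135) and -1.04 in the pineal gland (SE 0.40, limma adjusted p 0.0659). The eye call was lost without eye day (-1.24, limma adjusted p 0.0687) and without mixed night (-1.38, adjusted p 0.0952). In the pineal gland cry5 was called without pineal day (-1.74, limma adjusted p 0.0105), without eye day (adjusted p 0.0473), without eye night (adjusted p 0.0475) and with the pineal and mixed libraries alone (adjusted p 0.0458). It was not called without pineal night (-0.33, limma adjusted p 0.425), without mixed night (-0.75, adjusted p 0.321) or without mixed day (-1.32, adjusted p 0.101). The pineal day library held 3.64 FPKM, between the 3.10 and 5.04 FPKM of mixed night and mixed day, whereas the pineal night library was below both.

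The tissue means of lonrf1, uvssa, ercc5 and polk did not pass the test against mixed tissue in either comparison. Their log2 differences in the pineal gland were -0.17 (SE 0.70), 0.24 (SE 0.25), -0.18 (SE 0.24) and -0.47 (SE 0.21), and in the eye -0.60 (SE 0.70), -0.48 (SE 0.25), -0.26 (SE 0.24) and -0.12 (SE 0.21). Quantile normalization turned 3 of these signs, to 0.13 for lonrf1 and 0.15 for ercc5 in the pineal gland and to 0.07 for polk in the eye. The large error of lonrf1 goes with its values by time. It was 2.05 times the mixed level in pineal day and 1.96 times in eye day, but 0.335 times in pineal night and 0.145 times in eye night. Without mixed day, lonrf1 was called lower in the pineal gland (-1.50, limma adjusted p 0.0263) and in the eye (-1.93, limma adjusted p 0.0112). Without mixed night it was at 1.17 in the pineal gland and 0.73 in the eye, with no call.

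**Figure D3:**
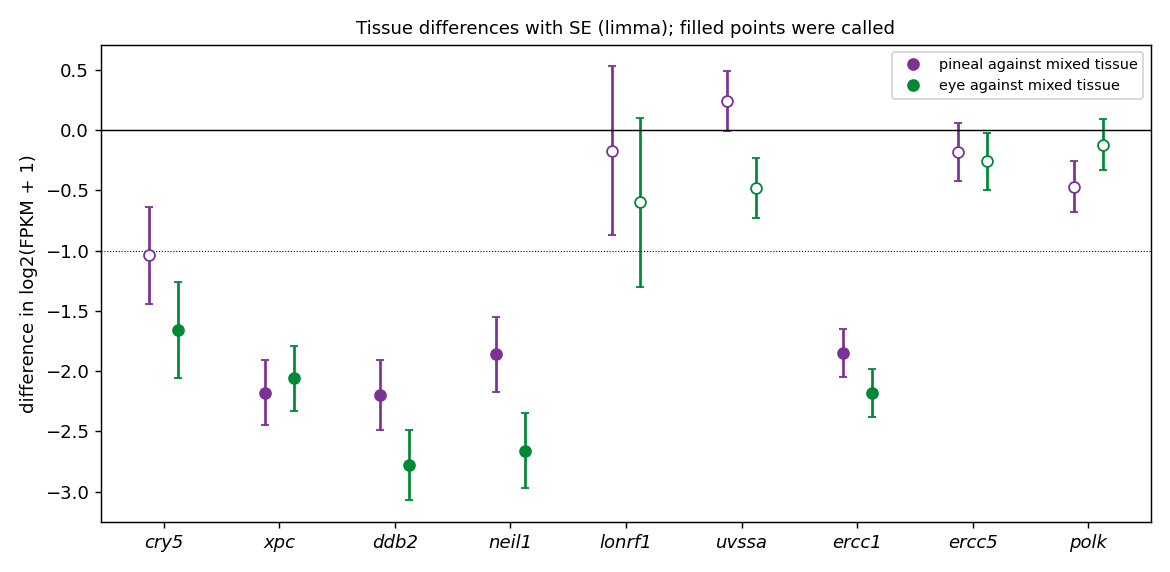
Difference in log2(FPKM + 1) of pineal gland and of eye against mixed tissue for each gene, with bars of 1 SE from limma over 6 libraries; filled points were called and the dotted line marks 2-fold. The called genes in both tissues are xpc, ddb2, neil1 and ercc1, between -1.85 and -2.78, and cry5 is called in the eye alone.

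Between the pineal gland and the eye, 0 of 9 genes were called by limma, where 23.4% of all genes were called, 9.25% higher in the pineal gland and 14.1% lower. At an unadjusted p under 0.05 there were 2 of the 9 and 9137 of all genes, and voom on the recovered reads also called 0 of the 9. The 2 were neil1 at 0.81 (SE 0.31, limma adjusted p 0.110) and uvssa at 0.72 (SE 0.25, limma adjusted p 0.0854). Without pineal night, ddb2 was called higher in the pineal gland (1.05, limma adjusted p 0.0484), against 0.59 (SE 0.29) with all libraries. For xpc the difference was -0.12 (SE 0.27; 0.12 under quantile normalization) and for ercc5 0.08 (SE 0.24). On the log2 scale of the deposited values, mixed tissue had the highest mean of the 3 tissues for all 9 genes but uvssa. For lonrf1 the order turned on the scale, since its mean of plain FPKM was 14.7 in the pineal gland, 13.2 in the eye and 10.9 in mixed tissue. The order of pineal gland and eye rests on differences that did not pass the test.

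Quantile normalization moved the median log2 difference of all genes to 0.03 in pineal against mixed tissue, 0.01 in eye against mixed tissue and 0.08 in pineal against eye (-0.04 as deposited). It changed the split of all calls in the pineal gland to 4996 higher and 4854 lower, against 3491 and 6429 as deposited. In the same setting, 4 of the 9 genes were called lower in the pineal gland, from -1.95 to -1.59, and 5 in the eye, from -2.71 to -1.42. Of all genes tested, 22.8% were then called lower in the pineal gland and 24.5% in the eye.

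Markers of dividing cells and of the ovary differed between the tissues as well. Of 17 matched genes of replication and cell division, 16 were called lower in the pineal gland and 16 in the eye than in mixed tissue, with medians of -4.54 and -4.36. Their summed level was 35.5 and 55.9 FPKM in pineal night and day, 43.6 and 59.1 FPKM in eye night and day, and 1203 and 1073 FPKM in mixed night and day, with none at 0. The part of dividing cells or of ovary RNA in the lower levels of xpc, ddb2, neil1, ercc1 and cry5 was not tested.

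The profiles of the 9 genes over the 6 libraries were compared by the root mean square difference of log2(FPKM + 1) after each gene's own mean was subtracted. The closest pairs were ercc5 with polk (0.21), ddb2 with neil1 (0.29), xpc with ercc1 (0.32) and xpc with ddb2 (0.35). The gene lonrf1 was far from all the others, from 1.05 for cry5 to 1.53 for ercc1. Among 11935 named genes with a mean of at least 5 FPKM, the profile closest to that of cry5 was ABCB4 (ENSDARG00000010936), at 0.211. Next were EXOSC6 (0.265), hif1al2 (0.289), DDX21 (0.292) and LRATD2 (0.299). On this scale the changes of a gene as weakly expressed as cry5 appear too small. Genes with means as low as that of cry5 were not among the candidates. ABCB4 was at 3.73 and 11.3 FPKM in pineal night and day, 2.53 and 4.22 FPKM in eye night and day, and 8.90 and 18.2 FPKM in mixed night and day. Like cry5, it was higher by day in all 3 tissues, and its tissue mean was lowest in the eye. Since ABCB4 was picked for its likeness to cry5 in these same libraries, this is no separate result. EXOSC6 differed from cry5 in the eye, with 3.4 FPKM at night against 2.93 FPKM by day.

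The other photolyase and cryptochrome genes were the closest relatives of cry5 in the table, 8 in all. Cryptochromes share the photolyase fold and several act as repressors in the clock. In the pineal gland all 8 reached 5 FPKM, 8 were below 0 on the log2 scale of night over day, and 7 were at least 2-fold lower at night, with a median of -1.85 (-0.04 for all genes). In the eye 7 reached that level, 5 were at least 2-fold lower and 1 higher (median -2.74, 0.11 for all genes), and in mixed tissue 3 of 8 were lower (median -0.45, 0.03 for all genes). Of all genes at that level, 3.87% were at least 2-fold lower at night in the pineal gland, 6.27% in the eye and 3.34% in mixed tissue. The share of all genes below 0 was not counted. In the pineal gland cry-dash, cry4 and a gene with the symbol cry1 (ENSDARG00000011583) reached 5 FPKM through the day library only. In the eye this held for the same cry1 gene and cpdp, and in mixed tissue for the other cry1 gene (ENSDARG00000045768). These counts are a description. The gene cpdp (ENSDARG00000099519), a photolyase for the other class of ultraviolet lesion, was at 7.95 FPKM in pineal night against 17.1 FPKM in pineal day (ratio 0.466, interval 0.377 to 0.572). In the eye it was at 3.81 FPKM at night against 5.46 FPKM by day (ratio 0.698, interval 0.539 to 0.900), and in mixed tissue at 23.1 FPKM at night against 22.7 FPKM by day (ratio 1.02, interval 0.919 to 1.13). As for neil1, the pineal and eye intervals of cpdp were below 1 and the mixed interval included 1.

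The photolyase-like gene cry-dash (ENSDARG00000002396) was at 3.63 FPKM in pineal night against 10.4 FPKM in pineal day (ratio 0.349, interval 0.258 to 0.466). The mixed libraries held 29.1 FPKM at night against 26.0 FPKM by day (ratio 1.12, interval 1.02 to 1.23). Against mixed tissue cry-dash was lower in the pineal gland (-1.97, SE 0.40, limma adjusted p 0.00815) and in the eye (-3.04, SE 0.40, adjusted p 0.00162), and cpdp was lower in the eye (-2.1, SE 0.28, adjusted p 0.00164). More of the 8 genes were called higher than lower, 3 against 1 in the pineal gland and 3 against 2 in the eye. Those higher in the pineal gland were cry3b (2.36, SE 0.42), cry3a (2.22, SE 0.33) and cry1 ENSDARG00000045768 (1.73, SE 0.27). Of all genes, 16.4% were called higher in the pineal gland and 20.7% in the eye, so these counts are a description. Between pineal gland and eye, cpdp was higher in the pineal gland (1.19, SE 0.28, limma adjusted p 0.0261). Of the cryptochromes, one of the genes with the symbol cry1 (ENSDARG00000045768), a clock repressor induced by light in zebrafish, was at 7.05 FPKM in pineal night against 95.4 FPKM in pineal day, and at 5.78 FPKM in eye night against 93.0 FPKM in eye day. The light-induced clock gene per2 was at 9.33 FPKM in pineal night against 54.9 FPKM in pineal day, and at 2.1 FPKM in eye night against 79.6 FPKM in eye day (ratio 0.0264, interval 0.0223 to 0.0309). The other light-induced clock genes did not all go the same way. The gene bhlhe40 was also lower at night in both tissues, at 12.6 FPKM in pineal night against 301 FPKM in pineal day. The genes nr1d1 and bhlhe41 were at least 2-fold higher at night in both. Of 6 in the list, 2 were at least 2-fold lower at night and 2 higher in the pineal gland (median 0.27). In the eye 1 was lower and 4 were higher (median 1.63).

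The rest of nucleotide excision repair was measured in 27 genes. Against mixed tissue 13 were lower in the pineal gland (median -0.90) and 12 in the eye (median -0.92). Of all genes, 30.1% and 28.5% were called lower in these comparisons. The largest falls in the pineal gland were those of lig1, the ligase that seals the repaired strand (-2.39, SE 0.19), and rpa2, a subunit of the protein that coats single strands (-2.39, SE 0.26). They were followed by ccnh (-2.14, SE 0.22) and ercc2 (-2.14, SE 0.21), both parts of the factor that opens the helix. The partner of ercc1, ercc4, fell by 1.78 in the pineal gland (SE 0.20) and by 1.96 in the eye (SE 0.20). Of the 27 genes, 1 was called between pineal gland and eye, rbx1 (1.15, SE 0.16), a subunit of the ubiquitin ligase that holds ddb2.

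By time of day few genes of the same list differed at least 2-fold. In the pineal gland 25 of the 27 genes reached 5 FPKM, and 2 of these were at least 2-fold lower at night (of all genes at that level, 3.87% were). They were rpa2, at 3.72 FPKM at night against 8.34 FPKM by day (ratio 0.446, interval 0.294 to 0.661), and ercc6, at 3.13 FPKM at night against 6.82 FPKM by day (ratio 0.460, interval 0.374 to 0.562). Both reached 5 FPKM through the day library only, so the count of 2 is a description. The ercc6 protein, like uvssa, acts at stalled RNA polymerase. In the pineal gland 19 of the 25 were below 0, with a median of -0.32 (-0.04 for all genes). In the eye 18 of 23 were above 0, and in mixed tissue 19 of 26. In the eye and in mixed tissue none differed 2-fold, and the medians were 0.17 and 0.09 (0.11 and 0.03 for all genes). The share of all genes on either side of 0 was not counted, so these counts are a description.

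Of 19 genes of base excision repair, 7 were lower than mixed tissue in the pineal gland and 10 in the eye, and none was higher. Of all genes, 30.1% were called lower in the pineal gland and 28.5% in the eye. Beside these shares, the counts of lower genes in this list and the next ones are a description. The glycosylase gene neil3 was at -4.56 in the pineal gland (SE 0.24) and -4.34 in the eye (SE 0.24). By time of day none of the list differed 2-fold in any tissue, among 12 genes at 5 FPKM in the pineal gland, 10 in the eye and 14 in mixed tissue. On the log2 scale of night over day 10 were below 0 in the pineal gland, with a median of -0.28 (-0.04 for all genes). In the eye 7 were above 0 and in mixed tissue 12, with medians of 0.07 and 0.12 (0.11 and 0.03 for all genes). These counts too are a description. Of 10 translesion genes tested, 3 were lower and 1 higher in the pineal gland, and 4 were lower and 1 higher in the eye, led by rad18 (-3.59, SE 0.21, in the pineal gland). None of these differed 2-fold between night and day. Of 8 mismatch repair genes, 5 were lower in the pineal gland and 5 in the eye, and of 16 genes of double-strand break repair, 10 and 11 were. In these last lists 1 gene differed 2-fold by time of day, xrcc4 in the pineal gland, at 3.03 FPKM at night against 6.61 FPKM by day (ratio 0.459, interval 0.300 to 0.686). The gene xrcc4 also reached 5 FPKM through the day library only, so this is a description.

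**Figure D4:**
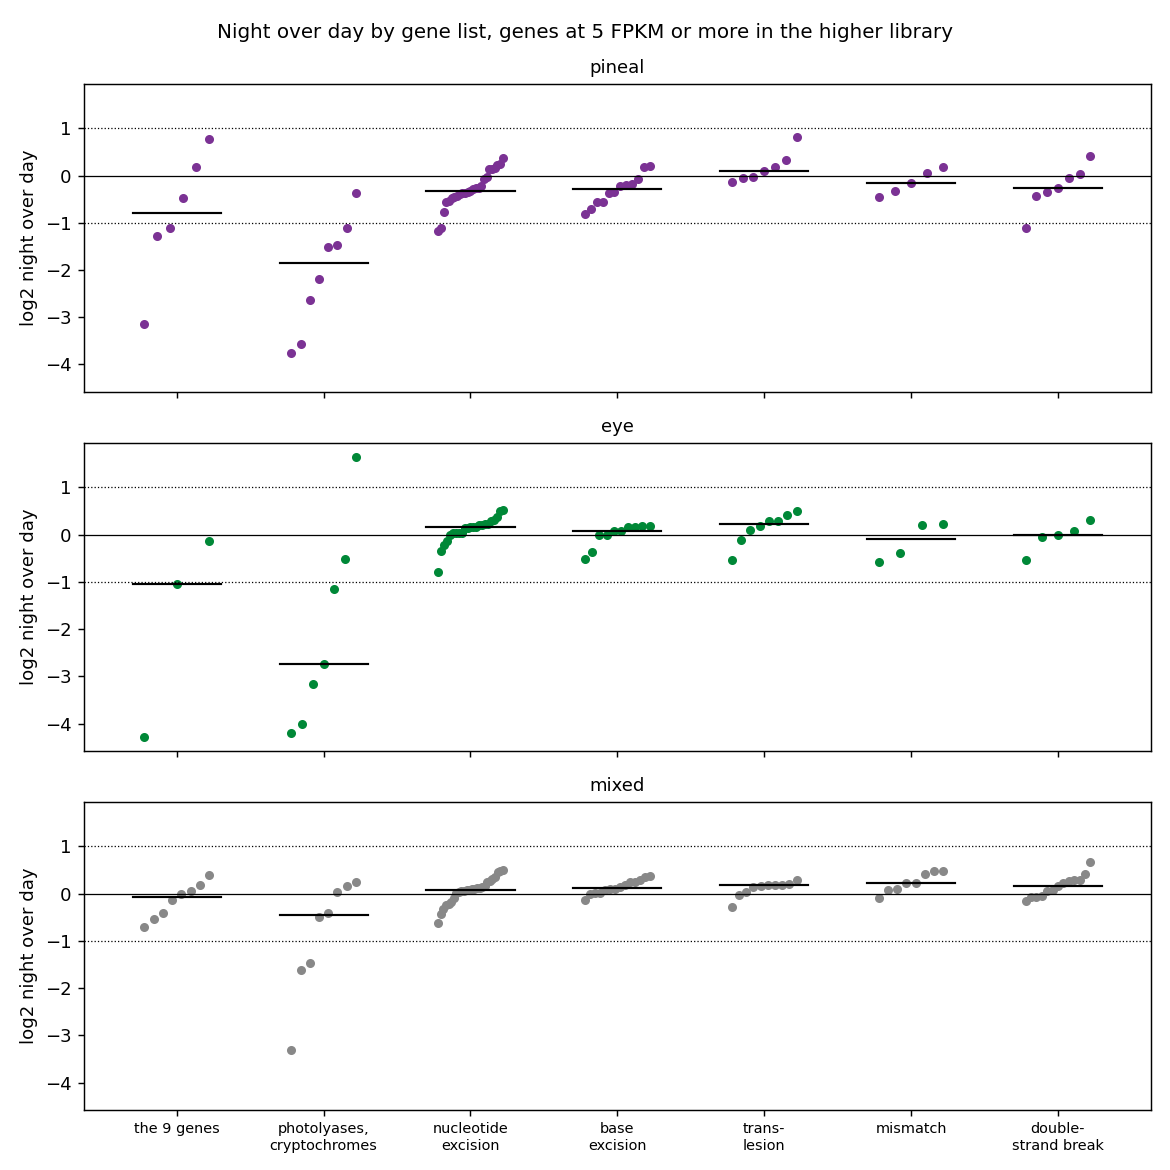
Log2 ratio of night to day FPKM (vertical axis) in the pineal gland, eye and mixed tissue for the genes of each list that reached 5 FPKM in a library of the tissue; each point is 1 gene (of the 9 genes, 6, 3 and 8 in these tissues), short lines are medians and dotted lines mark 2-fold. The photolyase and cryptochrome list has the lowest median in each tissue (-1.85, -2.74 and -0.45), and most genes of the other repair lists lie within 2-fold.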

How the data were processed

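Poly-A RNA of 6 pooled libraries was measured, 1 for each tissue and time point. The authors deposited FPKM values per gene. The tools named, per the submitters' processing notes, are STAR (version 2.3.0e), featureCounts, Subread, FastQC and DESeq2, with danRer10 as the genome build. The annotation release, the counting of strands and the treatment of reads shared by similar genes were not given in the sources used here. For each tissue the authors also gave a mean, and these 3 columns were left out. Symbols came from a table that pairs IDs with symbols (26269 of 32105 IDs had one). Marker and pathway lists hold only genes whose symbol matched, and calls of higher level in the nucleotide excision repair list against mixed tissue are not reported here.

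FPKM values are whole reads scaled by gene length and library total, so reads were recovered from their steps: 146152 of 146167 values above 0 were rebuilt to within a relative error of 1e-05. Whether a unit is a read or a fragment is unknown, and counting intervals are too narrow if both reads of a pair were counted. Library totals were 7949224 (pineal night), 11045259 (pineal day), 13418642 (eye night), 15016838 (eye day), 15950819 (mixed night) and 15708307 (mixed day).

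Two-sided moderated tests of tissue and time used limma (version 3.58.1, R version 4.3.3) with a pseudocount of 1 FPKM and variances shrunk toward a trend in expression; there were 2 residual degrees of freedom, and the prior added 3.46. With 1 pool a group, p-values measure how far the 6 pools stray from a sum of tissue and time, not variation between fish. The code was tested on simulated data. Ratios within a tissue are of deposited FPKM, with no test.

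The members and the gene lists were chosen with earlier results of these data known. The text names every member, up to 4 genes of another list per comparison by size among those called or past 2-fold, and the 5 named genes nearest in profile to cry5. Values of cpdp and cry-dash outside those limits, and ercc4, were added for their roles after their values were seen.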

Additional observations from a re-analysis of the deposited data

Results flagged for a closer look

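One gene had opposite differences between night and day in 2 tissues, with counting intervals on opposite sides of 1. The ratio of night to day of xpc was 0.514 in the pineal gland and 1.14 in mixed tissue. Of all genes tested, 21.7% had an interval below 1 in the pineal gland and 22.6% had one above 1 in mixed tissue. The share of genes with both was not counted, so this single gene is a description only. The difference between the tissues was not tested, since each ratio is 1 library against 1. The pineal value rests on 47 reads at night and 127 by day, and the mixed value on 827 reads at night and 717 by day.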

How the results depend on the processing

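The labels give no replicate numbers to block on, and the tissue term already sets each tissue's night library against its day library. Of the 9 genes, 4 to 5 were called in pineal against mixed tissue, 4 to 6 in eye against mixed tissue, 0 to 1 in pineal against eye and 0 in night against day over the tissues when each library was left out in turn. Under a pseudocount of 0.1, no filter, quantile normalization, a robust prior, voom and no time term these counts were 4, 5, 0 and 0 (without a time term there is no comparison of time, and without a tissue term it gave 0). With the libraries of the compared tissues alone they were 5, 5 and 0. Against mixed tissue, shares of all genes called lower are given above only for the deposited values and quantile normalization. In mixed tissue a 1.5-fold limit counted 1 gene, cry5, against 0 at 2-fold. In the pineal gland the 1.5-fold limit added uvssa, which was higher at night (ratio 1.70). A floor of 1 FPKM with the 2-fold limit added cry5 there, lower at night (ratio 0.0731). These counts are a description. Signs changed only for log2 values that were not called with all libraries. Under quantile normalization these were lonrf1 (0.13) and ercc5 (0.15) in pineal against mixed tissue, polk (0.07) in eye against mixed tissue and xpc (0.12) in pineal against eye. Under voom they were lonrf1 (0.10) in pineal against mixed tissue and polk (0.00) in night against day. Leaving out 1 library gave, in pineal against mixed tissue, -1.50 to 1.17 for lonrf1 and -0.07 to 0.54 for uvssa. In eye against mixed tissue it gave -1.93 to 0.73 for lonrf1, -0.54 to 0.02 for ercc5 and -0.26 to 0.02 for polk. In pineal against eye it gave -0.08 to 1.33 for cry5, -0.49 to 0.26 for xpc, -0.51 to 1.38 for lonrf1 and -0.20 to 0.36 for ercc5. In night against day it gave -0.39 to 0.05 for xpc and -0.11 to 0.06 for polk. The cause of these changes was not tested. Ratios within a tissue stayed inside their counting intervals under both other scalings. Depth limits cry5 most, with 5 reads in pineal night and 12 in eye night.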

Other observations

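Targets of the tumour suppressor p53 respond to DNA damage. Of 11 matched genes, 9 reached 5 FPKM in a pineal library. Night exceeded day at least 2-fold for 2 of them and day exceeded night for 0, and the median log2 ratio of night to day was -0.03 (-0.04 for all genes). In the eye 1 of 11 was higher at night and 1 lower, and in mixed tissue 1 of 11 was higher. Of all genes at 5 FPKM, 3.05% were at least 2-fold higher and 3.87% lower at night in the pineal gland. These shares were 7.13% and 6.27% in the eye and 1.15% and 3.34% in mixed tissue. Beside them the counts are a description, and cdkn1a reached 5 FPKM through the night library only in each tissue. The cell cycle inhibitor gene cdkn1a (ENSDARG00000076554) was at 129 FPKM in pineal night against 3.34 FPKM in pineal day (ratio 38.6, interval 28.7 to 53.2), at 47.0 FPKM in eye night against 3.33 FPKM in eye day, and at 41.5 FPKM in mixed night against 1.62 FPKM in mixed day. The gene btg2 (ENSDARG00000020298), which restrains cell growth, was at 66.7 FPKM in pineal night against 22.8 FPKM in pineal day (ratio 2.92, interval 2.63 to 3.24), and at 43.2 FPKM in eye night against 162 FPKM in eye day (ratio 0.267, interval 0.251 to 0.285). The difference of btg2 between pineal gland and eye was not tested.

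Of the light-induced clock list, 6 genes matched. In the pineal gland 2 were at least 2-fold higher at night (nr1d1 and bhlhe41) and 2 lower (per2 and bhlhe40). In the eye 4 were higher and 1, per2, was lower. In mixed tissue 1 was higher and 2 were lower. The shares of all genes are those given for the p53 targets, and counts over 6 genes are a description. In the pineal gland and the eye nr1d1 reached 5 FPKM through the night library only. In the eye per2 did so through the day library only.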
